A study of Mus musculus with 6 samples.

Results

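The genes described here encode co-repressors and histone deacetylases that bind ETO, the repressor portion of the leukaemia fusion protein AML1-ETO, together with the relatives of ETO that remain intact in these cells. They are Ncor1, Hdac1, Hdac2, Hdac3, Sin3a, Tbl1x, Tbl1xr1, Cbfa2t2 and Cbfa2t3, 9 genes chosen by name. Of these, 8 were measured under a single gene symbol, among 19938 genes in all. Ncor1 had no probe set named for it alone and was not analysed here. The 8 genes were covered by 12 probe sets, groups of short array probes that are summarised to 1 value. Where a gene had several, the probe set with the highest mean over all arrays stood for it.

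The cells were leukaemia blasts of C57BL/6 mice. Fetal liver cells taken at embryonic day 14.5, with either wildtype or floxed Aes alleles, were transduced with AML1-ETO9a, a truncated form of the fusion, and transplanted into recipients. All recipients were given tamoxifen 4 weeks after transplantation, which deletes floxed Aes, and spleen cells were later sorted for GFP. The comparison was between 3 AES wildtype and 3 AES knockout samples, 1 Affymetrix array each. Both groups carried AML1-ETO9a and received tamoxifen. The driver of the tamoxifen-sensitive recombinase is not given in the sources used here. Wildtype cells were collected when leukaemia killed the animal and knockout cells when the experiment ended, so genotype and time of collection cannot be told apart. Whether replicates are separate mice is not stated in the labels, and p-values therefore cover only the spread among these 6 samples.

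AML1-ETO keeps the DNA-binding domain of RUNX1 (AML1) and joins it to ETO, which recruits repressor complexes to RUNX1 target genes. In the NCoR complex, a large scaffold protein holds and activates the deacetylase HDAC3 and carries the WD40 proteins TBL1X and TBL1XR1. In the SIN3 complex, SIN3A holds HDAC1 and HDAC2. These enzymes remove acetyl groups from histone tails, which lowers transcription. CBFA2T2 (MTGR1) and CBFA2T3 (ETO2, MTG16) are paralogues of ETO that repress transcription in normal blood progenitors, where CBFA2T3 acts with TAL1 and LDB1. The truncated AML1-ETO9a lacks the C-terminal zinc finger of ETO that contacts NCoR. AES (TLE5) belongs to the Groucho/TLE co-repressors but is short and lacks their WD40 domain, and the comparison asked how its loss affected gene expression in this leukaemia.

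Because the fusion binds DNA through the RUNX1 domain, the bases before the annotated starts of these genes were searched for the RUNX core TGTGGT on both strands, in windows of 250 bases (RefSeq, GRCm38.p6). Windows on 1 chromosome were left out for all genes. The windows searched covered 7 of the 9 genes, 10 windows in all, and Hdac1 and Hdac3 had none among them. The RUNX core occurred before starts of Hdac2 and Ncor1, in 2 of the 10 windows, against 14.0% of the 32851 windows searched. A GC box, GGGCGG on either strand, occurred in 9 of the 10 windows, against 32.7% of all windows searched. Each of the 7 genes had it in at least 1 window. Of the measured genes that were searched, only Hdac2 had a match to the RUNX core. The stretch that holds the Hdac2 match, on the plus strand at chr10:36974459-36974488, is shown with the core in capitals.
Hdac2: cccgaccgtagtTGTGGTgcccccctccgc
The match starts 73 bases before the annotated start of Hdac2. It is a match of letters, and no binding was measured here.

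Values are the authors' log2 expression values, so that a difference of 1 is a 2-fold change. Array medians over the named genes lay between 6.70 and 6.80, and all 8 genes lay above the array median on all 6 arrays. The targeted gene, listed as Tle5, read 11.13, 11.10 and 11.11 on wildtype arrays 1 to 3 and 8.80, 9.33 and 8.86 on knockout arrays 1 to 3 (log2 difference -2.12). Its limma adjusted p was 0.234, although the groups did not overlap. Tle5 still lay above the array median on all 6 arrays, and how complete the deletion was is not known from these values. The blast markers Kit and Spi1 were above the array median on every array, while the other 8 of 10 blast markers, Mpo, Cd34 and Ptprc among them, were not on all arrays. Markers of other cells also differed between single arrays. The mean of 10 neutrophil genes lay 1.46, 1.62 and 1.74 above its 6-array mean on wildtype 1, knockout 2 and knockout 3, and at -0.20, -2.28 and -2.34 on wildtype 2, wildtype 3 and knockout 1. Of 6 B cell, 6 T cell and 4 NK cell markers measured, 1 (Cd79b) lay above the array median on all 6 arrays. The Y-linked genes Uty, Kdm5d and Eif2s3y were low on knockout 1 and 3. Eif2s3y read 9.61, 9.73 and 9.80 in wildtype and 4.09, 9.73 and 5.26 in knockout cells. Low Y-linked values were thus seen only among knockout arrays, so genotype and Y-linked expression cannot be fully told apart. Fewer cells of a type and less RNA per cell cannot be told apart in sorted bulk samples.

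No deacetylase or co-repressor of the group passed the test between the genotypes. With limma and Benjamini-Hochberg adjustment over all 19938 genes, each of the 8 had an adjusted p of 1.00, and the groups overlapped for 8 of 8. In all genes, 0 passed (0%), 505 (2.53%) had an unadjusted p under 0.05, and 1426 (7.15%) had groups that did not overlap, 3.65% with higher and 3.51% with lower values in knockout cells. Without moderation of the variances, the count was again 0, and 661 genes reached an unadjusted p under 0.05. Of the 8 genes, 5 had higher and 3 had lower means in the knockout group. Their median difference was 0.07, against a median of 0.003 over all genes and higher means for 50.9% of them. The differences ran from -0.10 for Cbfa2t3 to 0.42 for Cbfa2t2. The targeted gene Tle5 ranked 1 of all genes by unadjusted limma p and did not pass either (log2 difference -2.12, limma adjusted p 0.234). The test could therefore miss smaller changes. A p that misses the threshold does not show that values are equal, so the 95% interval of each difference is given below.

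**Figure D1:**
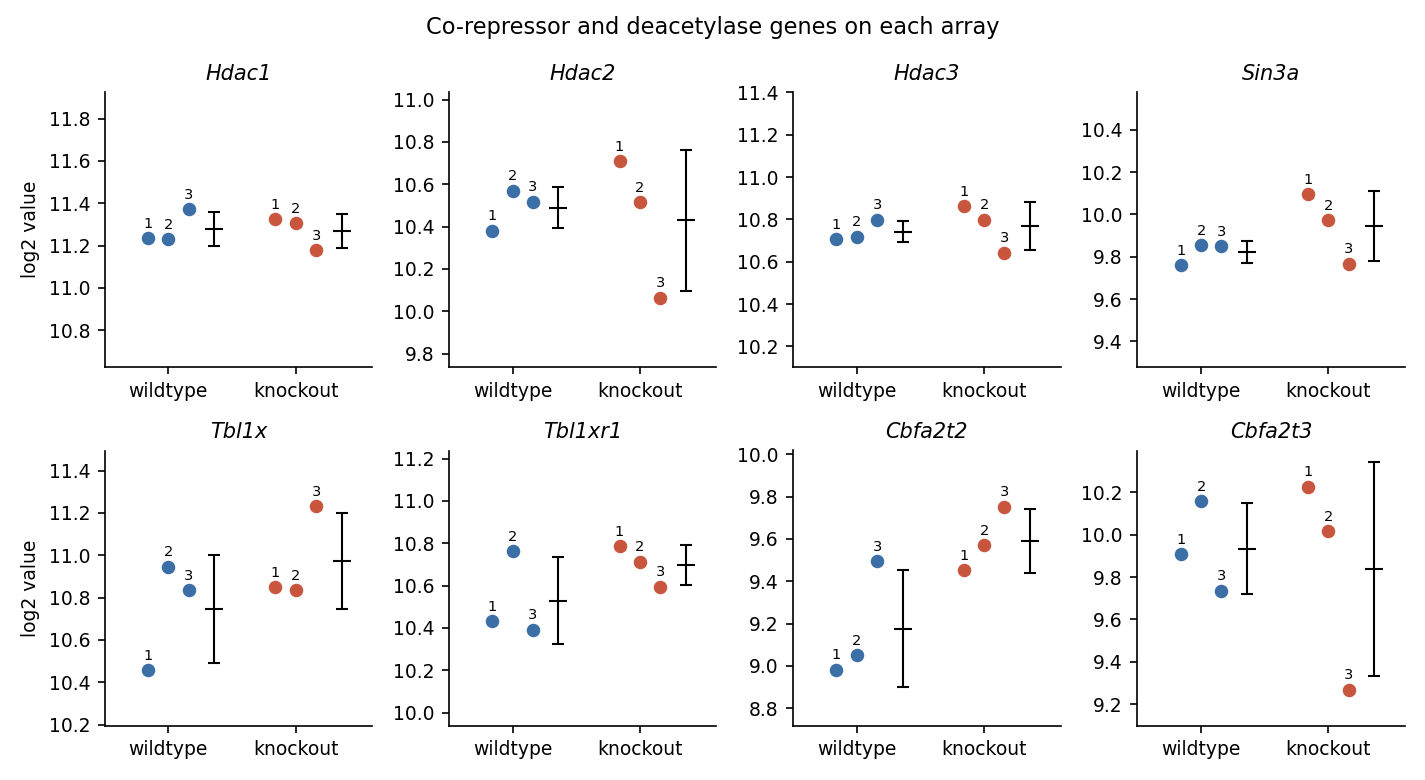
Log2 expression of the 8 measured genes on each array. Points are arrays, numbered by replicate, in wildtype (blue) and knockout (red) cells; black marks are group means with SD (n = 3), and every panel spans the same range of log2 units. The groups overlap in each panel, and knockout 3 is the lowest array for Hdac1, Hdac2, Hdac3 and Cbfa2t3.

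Hdac1 and Hdac2, the paired deacetylases of the SIN3, NuRD and CoREST complexes, did not pass in either direction. Hdac1 read 11.23, 11.23 and 11.37 in wildtype and 11.32, 11.30 and 11.18 in knockout cells. All 6 values lay within 0.19, and only 10.2% of genes had a smaller range. The means were 11.28 ± 0.081 and 11.27 ± 0.079 (SD, n = 3 each), a difference of -0.01 (SE 0.08, 95% interval -0.22 to 0.20). As a ratio of knockout to wildtype, that interval runs from 0.860 to 1.15. Its other probe set gave 0.001, so the 2 probe sets of Hdac1 agree within their errors. Hdac2 read 10.38, 10.57 and 10.52 in wildtype and 10.71, 10.52 and 10.06 in knockout cells. Knockout 1 was the highest and knockout 3 the lowest of the 6 arrays. The means were 10.49 ± 0.097 and 10.43 ± 0.33 (SD, n = 3 each), a difference of -0.06 (SE 0.18, 95% interval -0.50 to 0.38). The spread of Hdac2 between knockout arrays was thus several times its difference between groups.

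Hdac3, the catalytic subunit of the NCoR complex, read 10.71, 10.72 and 10.80 in wildtype and 10.86, 10.80 and 10.64 in knockout cells. Its knockout values lay on both sides of the wildtype values. The means were 10.74 ± 0.050 and 10.77 ± 0.11 (SD, n = 3 each), a difference of 0.03 (SE 0.09, 95% interval -0.19 to 0.24). As a ratio, the interval for Hdac3 runs from 0.876 to 1.18. Hdac1 and Hdac3 had the smallest standard errors of the 8 genes.

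Sin3a, the scaffold of the SIN3 complex, read 9.76, 9.85 and 9.85 in wildtype and 10.09, 9.97 and 9.77 in knockout cells. Knockout 1 and 2 were above all wildtype arrays, and knockout 3 fell among them. The difference was 0.12 (SE 0.11, 95% interval -0.14 to 0.38). Without knockout 3 it was 0.21, with an interval of -0.02 to 0.44.

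The WD40 proteins TBL1X and TBL1XR1, which help to exchange co-repressors for activators, both had higher means in knockout cells and did not pass. Tbl1x read 10.46, 10.95 and 10.84 in wildtype and 10.85, 10.83 and 11.23 in knockout cells. Wildtype 1 was the lowest and knockout 3 the highest, and the other 4 arrays lay close together between them. The difference of Tbl1x was 0.23 (SE 0.18, 95% interval -0.21 to 0.66), and it was 0.08 without wildtype 1 and 0.10 without knockout 3. Tbl1xr1 read 10.43, 10.76 and 10.39 in wildtype and 10.79, 10.71 and 10.60 in knockout cells. Wildtype 2 lay inside the knockout range and the other wildtype arrays below it. The difference of Tbl1xr1 was 0.17 (SE 0.13, 95% interval -0.14 to 0.48), and 0.29 without wildtype 2.

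The second probe set of Tbl1xr1 read 9.48, 10.01 and 9.75 in wildtype and 10.10, 10.11 and 10.08 in knockout cells. Here every knockout array lay above every wildtype array, the only 1 of the 12 probe sets of these genes for which the groups did not overlap. Of all 21789 probe sets with a single symbol, 7.29% had such groups. Its difference was 0.35 (SE 0.14), with an unadjusted limma p of 0.0490 and a limma adjusted p of 1.00 over all probe sets, so it did not pass either.

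Of the ETO paralogues, Cbfa2t2 had the largest difference between the groups. Cbfa2t2 read 8.98, 9.05 and 9.49 in wildtype and 9.45, 9.57 and 9.75 in knockout cells. Wildtype 1 and 2 were below all knockout arrays, and wildtype 3 lay just above knockout 1. The means were 9.18 ± 0.28 and 9.59 ± 0.15 (SD, n = 3 each), a difference of 0.42 (SE 0.17, 95% interval 0.01 to 0.82), or 1.33-fold higher. Of the 8 probe sets that stood for the genes, only that of Cbfa2t2 had an unadjusted limma p under 0.05, at 0.0467. Its limma adjusted p was 1.00, and its interval included 0 with quantile normalization (-0.01 to 0.80) and with averaged probe sets (-0.11 to 0.70), among other settings. The interval stayed above 0 with median centring (0.02 to 0.87) and with array weights (0.02 to 0.76). So it did with the replicate number as a block (0.12 to 0.71) and without wildtype 3 (0.26 to 0.89). Intervals of Cbfa2t2 in the other fits with 1 array left out included 0. An exact two-sided permutation test of its 6 values gave 0.2, where 3 arrays against 3 cannot give less than 0.1. Its second probe set read 8.66, 8.56 and 9.03 in wildtype and 8.74, 8.93 and 9.14 in knockout cells. That probe set had a difference of 0.18 (SE 0.17), smaller than that of the first, and knockout 1 and 2 lay between the wildtype arrays.

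Cbfa2t3 read 9.91, 10.16 and 9.73 in wildtype and 10.23, 10.02 and 9.27 in knockout cells. Knockout 1 was the highest and knockout 3 the lowest array, and the range of 0.96 was the widest of the 8 genes (83.8% of all genes had a smaller one). The difference between groups was -0.10 (SE 0.27, 95% interval -0.76 to 0.57). Its second probe set showed the same low value on knockout 3, 8.20 against 8.53 to 9.38 on the other 5 arrays, and a difference of 0.05. Runx1t1, the gene of ETO itself, read 8.17, 7.37 and 8.05 in wildtype and 7.25, 8.15 and 8.08 in knockout cells, a difference of -0.04. Where its probes lie was not known, so signal from the fusion transcript and from Runx1t1 cannot be told apart.

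**Figure D2:**
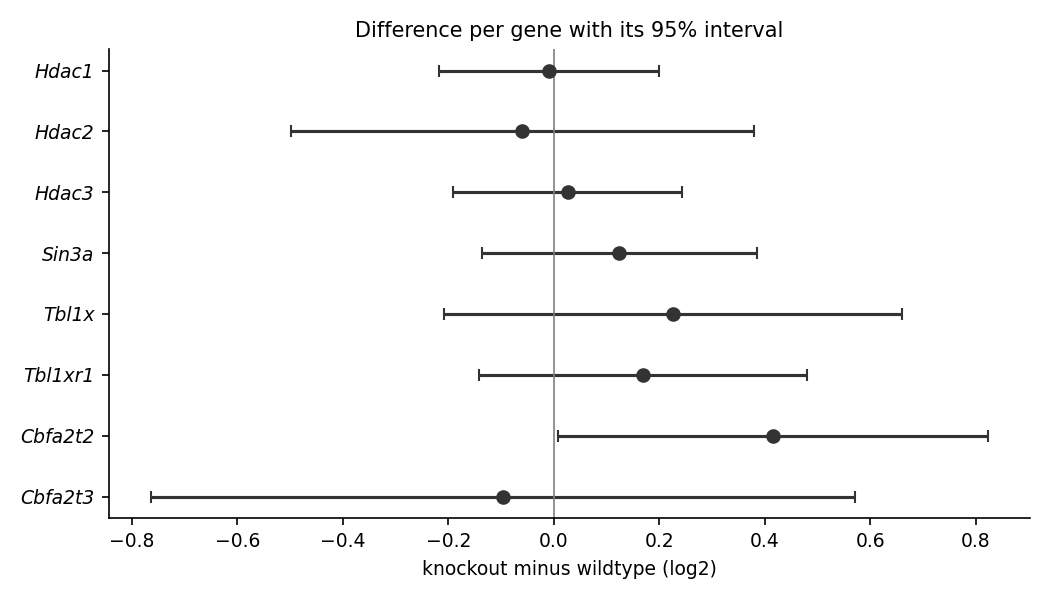
Difference in log2 expression between AES knockout and wildtype cells for each of the 8 genes (point), with the 95% interval from the limma fit over all genes (bar). Intervals for Hdac1, Hdac3 and Sin3a are the narrowest, and that of Cbfa2t2, 0.01 to 0.82, lies above 0 before adjustment.

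Paralogues were then compared with each other. The log2 ratio of a gene to its paralogue was formed on each array and its mean compared between genotypes in 4 pairs. Such a ratio shows whether both genes moved by the same amount and is not a ratio of their levels. The knockout minus wildtype difference in the ratio was 0.05 for Hdac1/Hdac2 (95% interval -0.39 to 0.49), and 0.10 for Sin3a/Sin3b (-0.26 to 0.46), which was 0.009 without wildtype 1 and 0.15 without knockout 2. It was 0.06 for Tbl1x/Tbl1xr1 (-0.55 to 0.67). For Cbfa2t2/Cbfa2t3 it was 0.51 (-0.77 to 1.79), and 0.15 without knockout 3. Exact two-sided permutation tests gave 0.9, 0.6, 0.8 and 0.4 for the pairs in this order, and 0.9 for each after Benjamini-Hochberg adjustment over the 4 pairs. The widest interval belongs to the ETO paralogues. On knockout 3 they lay at opposite ends, with Cbfa2t2 at its highest of the 6 arrays and Cbfa2t3 at its lowest.

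Knockout 3 stood at an extreme for 6 of the 8 genes. It held the lowest value of 4 of the 8 genes, Hdac1, Hdac2, Hdac3 and Cbfa2t3, where it was the lowest array for 24.7% of all genes. It held the highest value of 2, Tbl1x and Cbfa2t2, against 17.5% of all genes. Its deviations from the 6-array mean were -0.40 for Hdac2, -0.62 for Cbfa2t3, 0.37 for Tbl1x and 0.37 for Cbfa2t2. Knockout 1 held the highest value of 5 genes, Hdac2, Hdac3, Sin3a, Tbl1xr1 and Cbfa2t3 (27% of all genes). Hdac2, Hdac3 and Cbfa2t3 thus had both their highest and their lowest value within the knockout group. The share of all genes with both was not counted. Wildtype 1 was the lowest array for Sin3a, Tbl1x and Cbfa2t2 (26% of all genes).

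Other gene groups were also at their extremes on knockout 3. The mean of 9 G2/M genes, such as Mki67 and Top2a, lay at -0.69 there and between 0.009 and 0.25 on the other 5 arrays. The mean of 5 erythroid genes, among them Klf1, Alas2 and Tfrc, lay at -1.23 on knockout 3, against -0.54 to 1.13 elsewhere. Slc4a1 of this list was instead lowest on wildtype 2, at 8.60 against 9.38 on knockout 3. The mean of 8 macrophage genes was highest on knockout 3, at 0.97. Of these, Adgre1 and Cd68 were instead highest on wildtype 1 and Marco on knockout 1. The part of these cell groups and of proliferation in the low Hdac2 and Cbfa2t3 values was not tested. Without knockout 3, the differences of Hdac2 and Cbfa2t3 turned from -0.06 and -0.10 to 0.12 and 0.19, and 0 of the 8 genes had a lower mean in knockout cells. None passed then either, with limma adjusted p of 0.999 for each of the 8.

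**Figure D3:**
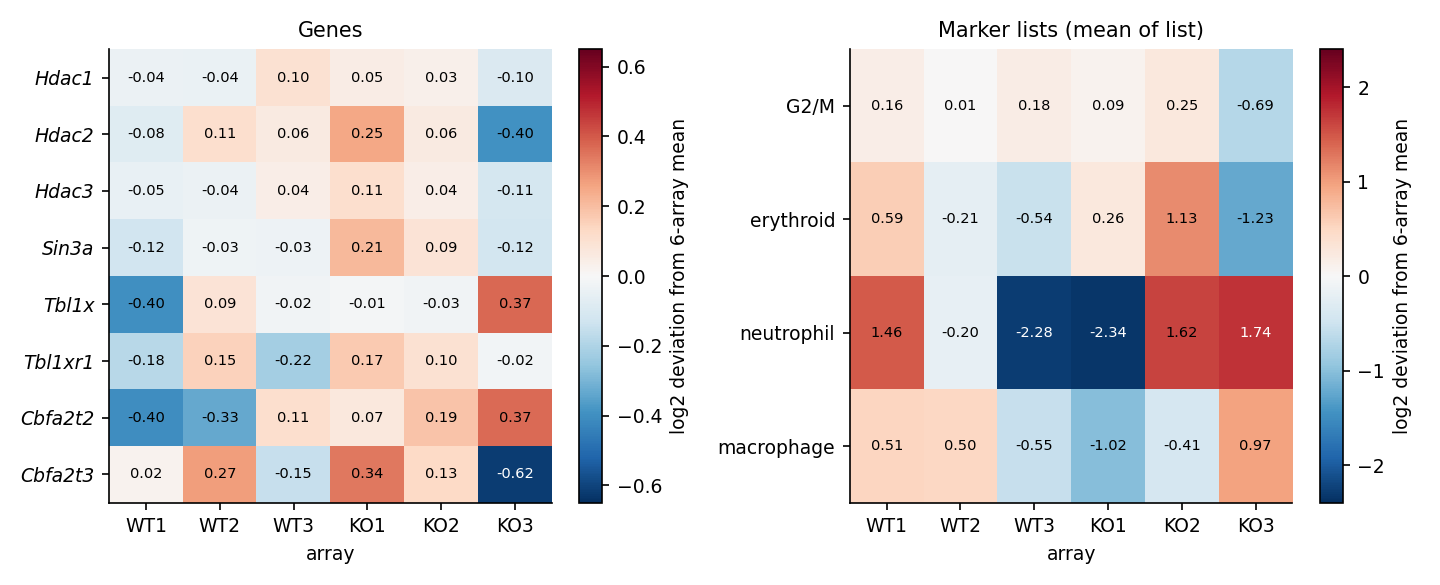
Deviation of each gene (left) and of the mean of 4 marker lists (right) from the 6-array mean, in log2 units, on wildtype (WT) and knockout (KO) arrays 1 to 3. The colour scales of the panels differ. On KO3, Hdac2 and Cbfa2t3 are low together with the G2/M and erythroid means, while Tbl1x, Cbfa2t2 and the macrophage mean are high.

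Profiles most like those of the most variable genes were looked up by the root mean square difference of centred log2 values over the 6 arrays. For Cbfa2t3 the nearest were Mid1ip1 (0.037), Htra2 (0.050) and Mmaa (0.062), each lowest on knockout 3. For Tbl1x, the gene with the second widest range, the nearest were Pigv (0.040), Slc9a8 (0.045) and Tmem42 (0.053), each lowest on wildtype 1 and highest on knockout 3. These distances rest on 6 arrays and are a description.

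Lists of genes of the complexes and of related genes were then examined. Together they held 84 genes beyond the 8, of which 47 had higher and 37 had lower means in the knockout group. The median difference was 0.03. With limma 0 of the 84 passed. Further, 0 had an unadjusted p under 0.05 (2.53% of all genes), and 3 had groups that did not overlap (7.15% of all genes). Counts and medians of each list, here and below, include those of the 8 genes that belong to it. In the NCoR complex, 4 of 5 listed genes were measured, and the median was 0.10 (0.05 without wildtype 1, 0.16 without wildtype 2). The 3 with higher means were Hdac3, Tbl1x and Tbl1xr1, already described above. Gps2, a further subunit of that complex, read 10.93, 11.09 and 10.77 in wildtype and 10.82, 10.97 and 10.84 in knockout cells. Its groups overlapped, with a difference of -0.05.

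The SIN3 list had 18 measured genes, 12 with higher means and 6 with lower ones, and a median of 0.04 (0.03 without knockout 2, 0.06 without knockout 3). Sin3b, the paralogue of Sin3a, read 9.04, 8.86 and 8.86 in wildtype and 8.91, 9.07 and 8.84 in knockout cells, a difference of 0.02. Arid4a, a DNA-binding subunit, had a difference of 0.32, Sap18 of -0.19, Brms1 of 0.15 and Ing2, which reads methylated histone H3, of -0.25. None of these 4 passed, and the groups overlapped for each. The 17 genes of the NuRD and CoREST complexes, which share Hdac1 and Hdac2 with SIN3, had 13 higher and 4 lower means and a median of 0.06 (0.04 without wildtype 3, 0.09 without knockout 3). The demethylase Kdm1a (LSD1) read 9.58, 9.21 and 9.78 in wildtype and 9.86, 9.76 and 9.90 in knockout cells, a difference of 0.32. Its CoREST partner Rcor1 had a difference of 0.35, Rcor3 of 0.34 and the NuRD subunit Gatad2b of 0.20. The groups overlapped for all of these.

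The list of other deacetylases held those of classes IIa, IIb and IV, Hdac8 and the sirtuins. Of 15 genes, 5 had higher and 10 lower means, none passed, and the groups overlapped for all 15. The median was -0.03, and it ran from -0.13 (without knockout 3) to -0.009 (without wildtype 3) with single arrays left out. Sirt2, Sirt4, Sirt7 and Hdac10 had differences of -0.17, -0.16, -0.23 and -0.13. The counterpart enzymes, histone acetyltransferases, had 6 higher and 4 lower means of 10, and a median of 0.05. That median ran from 0.003 without knockout 2 to 0.14 without wildtype 1. Kat5 (TIP60) read 9.57, 9.38 and 9.49 in wildtype and 9.68, 9.67 and 9.68 in knockout cells. Its groups did not overlap, and its difference of 0.19 had an unadjusted limma p of 0.0505 and an adjusted p of 1.00. The co-activators Ep300 and Crebbp had differences of 0.23 and 0.23, and Kat6a of -0.09.

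DNA-binding partners that bring ETO proteins to chromatin included E proteins and the TAL1 complex. Of 13 genes, 7 had higher and 6 lower means, with a median of 0.05, and groups did not overlap for 2 (7.15% of all genes). The median turned to -0.04 without knockout 3 and was 0.07 without wildtype 3. Tcf12 (HEB), an E protein that binds AML1-ETO directly, read 10.05, 10.27 and 10.20 in wildtype and 10.42, 10.28 and 10.42 in knockout cells. The lowest knockout and the highest wildtype value of Tcf12 were close together, and the difference was 0.20 (limma adjusted p = 1.00). Tal1 read 9.67, 9.55 and 9.68 in wildtype and 9.74, 9.86 and 9.70 in knockout cells, a difference of 0.13. Zbtb33 (Kaiso), which binds methylated DNA with NCoR, had a difference of 0.24 and Lyl1 of -0.16.

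The last list held further co-repressors, the long TLE proteins and CtBP among them, and also Rcor1 of the CoREST complex. Of 15 genes, 6 had higher and 9 lower means, with a median of -0.07. It ran from -0.17 without wildtype 2 to -0.006 without knockout 1. Tle1 had a difference of -0.42, with knockout 3 at 6.66 and the other arrays at 7.29 to 7.61. Ctbp2 had a difference of -0.35, with wildtype 1 at 7.65 and the other arrays at 6.49 to 6.73. It lay above the array median on 1 array. Nrip1, a nuclear receptor co-repressor, read 9.09, 9.69 and 9.58 in wildtype and 5.64, 9.46 and 9.67 in knockout cells. Knockout 1 lay far below the other 5 arrays. The difference was -1.19 with all arrays and 0.11 without knockout 1.

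**Figure D4:**
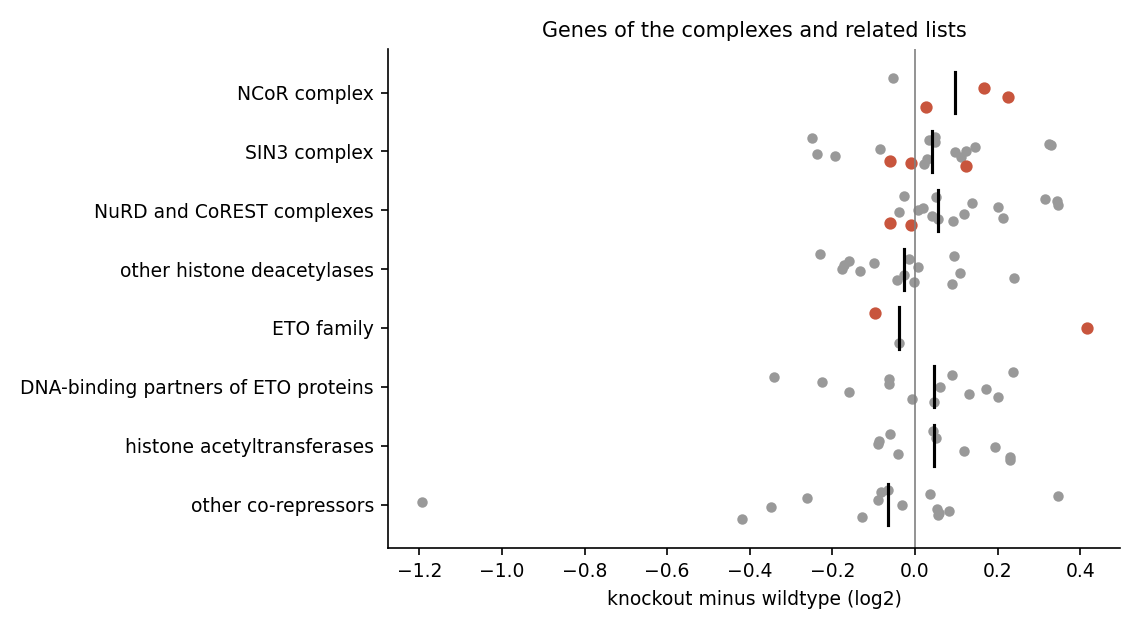
Knockout minus wildtype differences in log2 units for every measured gene of 8 lists. Red points are the co-repressor and deacetylase genes described above, grey points the other genes of each list, and black bars the list medians, which lie between -0.07 and 0.10; the point at -1.19 is Nrip1.

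Each array was left out in turn to see which differences rested on 1 sample. Cbfa2t2 kept a higher mean in knockout cells in all 6 fits, from 0.32 without wildtype 1 to 0.57 without wildtype 3, as did Sin3a (0.05 to 0.21), Tbl1x (0.08 to 0.33) and Tbl1xr1 (0.10 to 0.29). Hdac1, Hdac2, Hdac3 and Cbfa2t3 changed sign. None of the 8 genes passed in any of these fits.

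**Figure D5:**
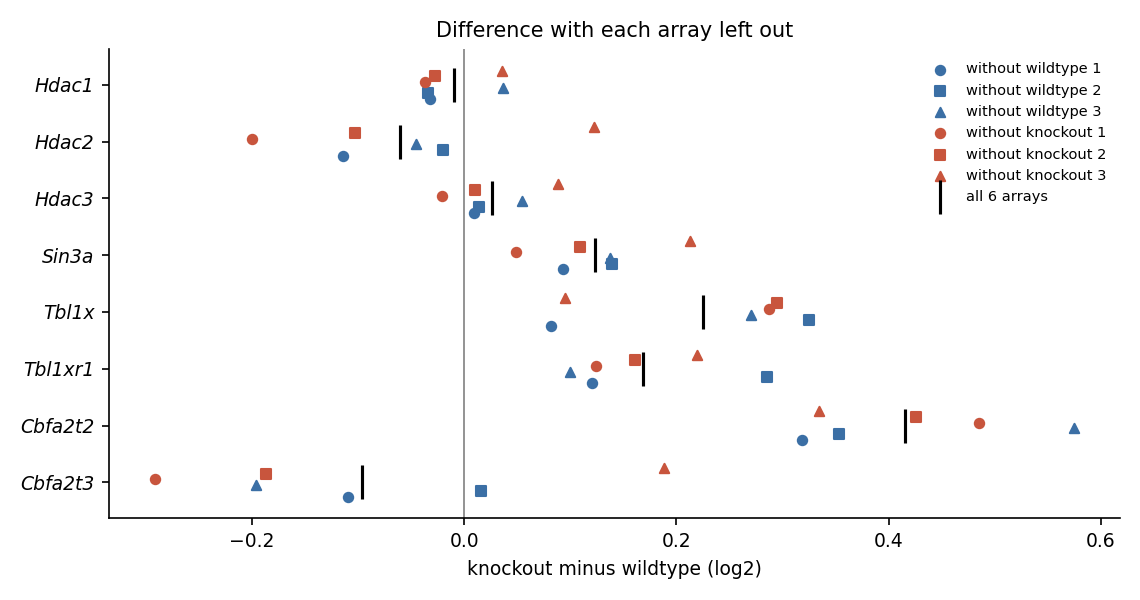
Knockout minus wildtype difference (log2) of each gene with all 6 arrays (black bar) and with 1 array left out (blue, a wildtype array; red, a knockout array). Sin3a, Tbl1x, Tbl1xr1 and Cbfa2t2 stay above 0, while Hdac2 runs from -0.20 to 0.12 and Cbfa2t3 from -0.29 to 0.19.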

How the data were processed

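The authors deposited a table of 35512 rows with log2 values between 2.67 and 14.37 for 6 arrays. The base 2 was inferred from this range, and how background, probes and arrays were processed is not given in the sources used here. The platform annotation gave a single symbol to 21789 rows, several to 1621 and none to 12102, and 1 row had no values. For genes with several rows (999), the row with the highest mean was used, without a filter on dim genes. No detection calls were used. Knockout was compared with wildtype by limma 3.58.1 in R 4.3.3 (lmFit and eBayes, two-sided, no block), adjusted over 19938 genes at 0.05, and the script was tested on simulated data. The genes and lists were chosen with earlier results of these data known. Genes named from lists were up to 4 per list by smallest unadjusted p, plus Sin3b and Runx1t1 as paralogues. Marker genes and arrays at the extremes are named as examples. Figures used Python 3.11.15 and matplotlib 3.10.9. Replicate numbers were not taken as pairs, since they are not stated to mark a shared animal or day. Other settings tried were the replicate block, array weights, averaged rows per gene, other variance settings, a brightness filter, median centring, quantile normalization and each array left out.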

Additional observations from a re-analysis of the deposited data

How the results depend on the processing

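None of the 8 genes passed the limma test under any of the 14 planned settings (smallest adjusted p 0.897). The count of all genes called was 0 under each setting except without knockout replicate 2, so that leaving out arrays gave 0 to 3. The 3 were Tle5, Kdm5d and Uty. Kdm5d and Uty are Y-linked, and knockout 2 was the only knockout array on which they were high. The number of the 8 genes with a lower mean ranged from 0 (without knockout replicate 3) to 4 (without knockout replicate 1), and their median difference from 0.01 to 0.16. With arrays left out, Hdac1 ranged from -0.0374 to 0.0368, Hdac2 from -0.20 to 0.12, Hdac3 from -0.0213 to 0.0886 and Cbfa2t3 from -0.29 to 0.19. The ratio difference ranged from -0.0873 to 0.16 for Hdac1/Hdac2 and from -0.12 to 0.17 for Tbl1x/Tbl1xr1. The difference of Nrip1 ranged from -1.90 to 0.113 (the fits of ratios and of Nrip1 with arrays left out were chosen after seeing the data). Hdac1 turned to 0.0157 with median centring, 0.00825 with array weights and 0.00099 with its other probe set, Hdac3 to -0.0115 with quantile normalization, Cbfa2t3 to 0.0502 with its other probe set, and Tbl1x/Tbl1xr1 to -0.0343 with averaged rows. These values lie within their errors of 0, and the cause was not tested. With the replicate number as a block, 0 genes were called. This block cannot change a difference between the groups in a balanced design, so the median of the 8 genes was 0.07 by construction. Deviations of same-numbered arrays from their group means had correlations of -0.259, -0.228 and 0.0746 across genes. With 3 arrays per group, these values cannot decide whether the replicates were paired. Each group had 3 arrays, which limits the precision.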
